A study of Mus musculus with 32 samples.

Results

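The 585 regions described here are sites of accessible chromatin that ranked high in sorted Etv2-EYFP+ cells of the mouse limb bud and low in 8 other limb bud libraries. They were chosen from 25401 regions in all. The assay was ATAC-seq, in which the Tn5 transposase inserts sequencing adapters into DNA that is not covered by nucleosomes, and each deposited list holds the summits of the accessible sites of 1 library. The 10000 highest-ranked summits of each of 14 lists were taken, and summits 200 bp or less apart were merged into regions. A region was kept when it was listed in at least 5 of the 6 libraries of EYFP+ cells and in at most 1 of the 8 other libraries. These EYFP-listed regions made up 2.3% of the merged regions. Since the listing in these 14 libraries chose them, it is given as a description and was not tested.

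The series comprised 32 libraries in 12 groups. FL_GFP_pos and HL_GFP_pos, with 3 libraries each, were cells of E10.5 forelimbs and hindlimbs from embryos with an EYFP transgene driven by Etv2 regulatory sequence, sorted as positive for EYFP and negative for CD31, Tie2 and CD45, which mark endothelial and blood cells. The labels give the forelimb and hindlimb libraries the same 3 numbers and do not say what a number marks, so the 6 libraries may not be independent. HL_E9_5 was 1 library of wild-type hindlimb at E9.5. Etv2CKO_posteriorHL (2 libraries, E10.5) and Etv2cKO_E10_25 (5 libraries, E10.25) were posterior hindlimb cells of HoxB6-Cre Tg/+; Etv2 fl/- embryos, in which every cell carries 1 null allele and the floxed allele is lost in the posterior lateral plate and limb mesoderm where HoxB6-Cre acts.

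The other 18 libraries played no part in the choice of regions. LimbWT_10_25 (2 libraries) was posterior wild-type hindlimb at E10.25. Posterior_E10_5 and Anterior_E10_5, with 1 library each, were the Shh-EGFP+ posterior cells and the anterior cells of E10.5 hindlimbs from Shh-EGFP embryos. WT_Control and Etv2_OE were hindlimbs cut into an anterior (A) and a posterior (P) portion, from 4 control and 3 overexpressing embryos, labelled E10.5. Etv2_OE embryos carried HoxB6-Cre Tg/+, iHA-Etv2 Tg/+ and ROSA26-STOP-rtTA-IRES-EGFP Tg/+, so that doxycycline given to the dams at E9.5 and E10.5 induced HA-ETV2 in the HoxB6-Cre lineage only. As controls the methods name littermates lacking iHA-Etv2 or rtTA, while elsewhere the study gives its control embryos as lacking HoxB6-Cre and carrying both of these, so the exact genotype of WT_Control is uncertain. The methods of the study describe a harvest later than the second injection, so the stage of these 14 libraries is uncertain. EYFP+ libraries differed from the 8 others of the rule in the sort for EYFP and in mouse line, from 7 of them in genotype and position in the limb, and from all but the 2 Etv2CKO_posteriorHL libraries in stage, and these differences cannot be told apart.

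The label of the set, regions specific to sorted reporter-positive cells, did not hold in every library beyond the 14. Control hindlimbs, for which the labels state no sort, listed most of the same sites: a mean of 67.7% of the EYFP-listed regions was among the 10000 highest-ranked summits of the anterior control libraries and 50.6% among those of the posterior ones, against 37.3% and 36.2% of all merged regions. Other libraries outside the rule listed fewer: LimbWT_10_25 a mean of 16.4%, Posterior_E10_5 29.2% and Anterior_E10_5 30.1%. Of all merged regions they listed 38.8%, 37.4% and 34.5%. Among distal regions (over 2000 bp from a start) the order turned, at 13.8%, 25.7% and 28.0% against 12.7%, 14.1% and 17.4%. The set is therefore named by its rule. Low rank in the 8 other libraries was not the same as absence. In the whole deposited lists, the median EYFP-listed region was present in 5 of the 8 other libraries, 31 regions were present in 0 of them and 8 regions in all 8. The same 8 whole lists each held 48.7% to 80.7% of all merged regions and 3.08% to 89.9% of the EYFP-listed ones.

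ETV2 is an ETS family transcription factor known as a master regulator of the endothelial and blood lineages. LIM-homeodomain factors such as LHX2, LHX9, LMX1B and ISL1 pattern the limb mesenchyme and bind sites with a TAAT core. Promoters rich in CpG are accessible in most cell types, whereas accessible sites far from promoters differ more between cell types and often act as enhancers.

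A total of 6 of the EYFP-listed regions are printed to show what such a site looks like. They were the best-ranked regions far from a start and almost free of repeats that held TAATTA (the core bound by LIM-homeodomain factors), AGGAAGT or AGGAAAT (ETS words) or CAGCTG (an E-box), and the best-ranked ones near genes of the gene lists. Each is 200 bases of the mm10 assembly (GRCm38), plus strand, centred on the best-ranked summit. Capitals mark these words on either strand. In the Tmprss15 region the printed ATTTCCT is an ETS word read on the minus strand.
Spata9 intron, chr13:75992295-75992494: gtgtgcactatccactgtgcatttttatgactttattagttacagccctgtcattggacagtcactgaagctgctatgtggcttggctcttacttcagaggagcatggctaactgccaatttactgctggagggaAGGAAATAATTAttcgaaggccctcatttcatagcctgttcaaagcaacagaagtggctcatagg
Near Cxxc4, chr3:134330942-134331141: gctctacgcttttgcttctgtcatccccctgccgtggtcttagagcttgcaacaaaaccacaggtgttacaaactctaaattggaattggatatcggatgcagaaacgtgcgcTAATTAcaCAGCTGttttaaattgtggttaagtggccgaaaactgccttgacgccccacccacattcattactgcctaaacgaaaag
Near Tmprss15, chr16:79342620-79342819: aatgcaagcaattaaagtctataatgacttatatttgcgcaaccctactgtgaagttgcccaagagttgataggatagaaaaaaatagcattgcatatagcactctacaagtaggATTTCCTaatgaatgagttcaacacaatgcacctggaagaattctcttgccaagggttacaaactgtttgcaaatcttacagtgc
Ccdc34 intron, chr2:110085693-110085892: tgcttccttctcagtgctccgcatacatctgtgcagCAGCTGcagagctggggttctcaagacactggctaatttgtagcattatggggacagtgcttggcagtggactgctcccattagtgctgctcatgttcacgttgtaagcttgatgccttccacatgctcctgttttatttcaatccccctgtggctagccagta
Fgf10 intron, chr13:118746514-118746713: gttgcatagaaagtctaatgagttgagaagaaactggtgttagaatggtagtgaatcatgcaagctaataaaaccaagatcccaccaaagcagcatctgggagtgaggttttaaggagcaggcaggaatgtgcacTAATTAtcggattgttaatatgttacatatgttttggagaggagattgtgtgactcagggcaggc
Near Sox9, chr11:112412505-112412704: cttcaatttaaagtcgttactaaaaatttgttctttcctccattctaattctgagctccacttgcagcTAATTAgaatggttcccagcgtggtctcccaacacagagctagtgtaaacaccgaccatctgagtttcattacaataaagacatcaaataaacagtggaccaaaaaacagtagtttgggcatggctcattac

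In the Spata9 region the ETS word and TAATTA overlap by 1 base. In the Cxxc4 region TAATTA and CAGCTG stand 2 bases apart. The Fgf10 region lies in an intron of the gene for the FGF that starts limb outgrowth, 31915 bp from its start, and the Sox9 region lies between genes, 369619 bp from the start of Sox9, the master factor of cartilage.

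The 6 EYFP+ libraries listed the regions unequally. FL_GFP_pos listed 552, 552 and 562 of the 585, and HL_GFP_pos listed 547, 529 and 459. HL_GFP_pos replicate 3 stood apart as the lowest, and it was the single EYFP+ library without the region for 126 of the 309 regions listed in 5 of 6. Leaving it out, with at least 4 of the other 5 EYFP+ libraries then required, raised the number of regions to 879. That rule was looser, so the rise is not due to this library alone. Of the 585, 276 were listed in all 6 EYFP+ libraries and 179 of these in none of the 8 others. HL_E9_5 listed 54, the Etv2CKO_posteriorHL libraries 44 and 64, and the 5 Etv2cKO_E10_25 libraries 2, 0, 5, 16 and 4.

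**Figure D1:**
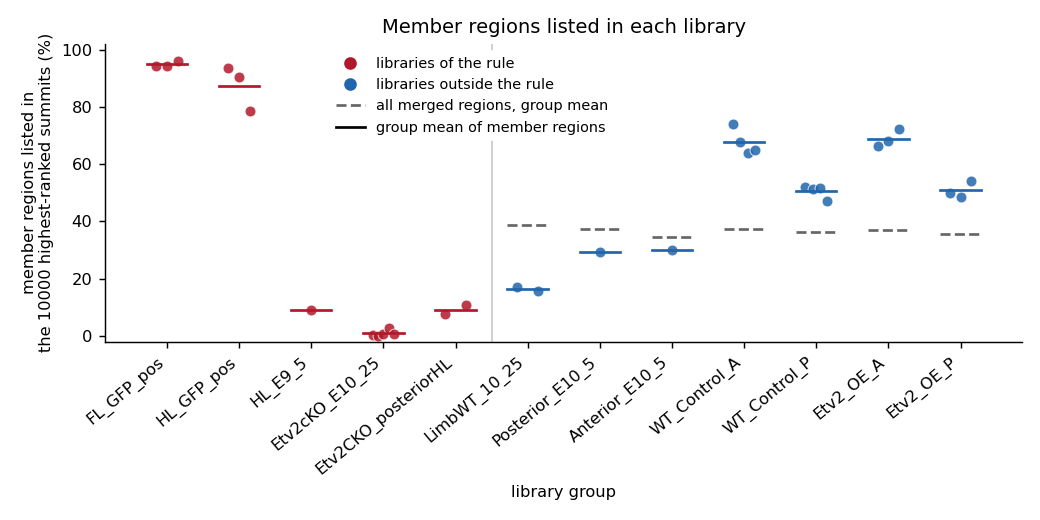
The share of the 585 EYFP-listed regions (member regions, y axis, percent) found among the 10000 highest-ranked summits of each library, by group (x axis). Points are libraries, solid lines group means and dashed lines the mean over all merged regions for the groups outside the rule; red groups chose the regions, and among the blue groups the WT_Control_A and Etv2_OE_A points, from 63.9% to 74.2%, lie above the dashed lines and the LimbWT_10_25 points, 15.6% and 17.3%, below.

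The regions just inside and just outside the rule were close in rank. The 309 regions listed in 5 EYFP+ libraries had a median of their median ranks of 6413, against 4534.5 for the 276 listed in all 6. Another 501 regions missed the rule by being listed in 4 EYFP+ libraries, with a median of 7990, and 178 missed it by being listed in 2 of the other libraries, with a median of 5080. The best-ranked of the former lay 89579 bp from Dpyd and the best-ranked of the latter 1018 bp from Gm3667.

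Whole lists differed in length, which limits how much can be listed. They held 37213, 46045 and 48385 summits in FL_GFP_pos and 32247, 41285 and 34363 in HL_GFP_pos. The Etv2cKO_E10_25 lists held 32516, 15629, 42744, 19737 and 30148 summits and contained 302, 18, 526, 186 and 328 of the regions in the same order. Within this group the longest list held the most and the shortest the fewest. These were 51.6%, 3.08%, 89.9%, 31.8% and 56.1% of the regions, against 71.8%, 48.7%, 80.7%, 56.6% and 72.0% of all merged regions in the same lists. Across groups the counts did not follow length. HL_E9_5, with 36951 summits, held 247 of the regions (42.2%, against 70.3% of all merged regions). The shorter Etv2CKO_posteriorHL lists, with 34498 and 28368 summits, held 437 and 411 (74.7% and 70.3%, against 75.9% and 71.3%). The number of reads behind each list is unknown.

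Promoter summits of marker genes were used to check the sort. Prrx1, Twist1 and Msx1, factors of limb mesenchyme, had a summit within 1000 bp of a start in all 6 EYFP+ whole lists, Tbx4 in 4 and Prrx2 in 3. Of 9 endothelial genes, the adhesion genes Cdh5, Pecam1 and Emcn and the receptor gene Tie1 had none in any EYFP+ list, while Kdr had one in all 6, Erg in 4, Fli1 and Tal1 in 2 each and Tek in 1. None of 5 blood genes (Gata1, Klf1, Ptprc, Spi1, Hbb-bt) had one. Krt5, Krt14 and Trp63 of the ectoderm and Sox10 and Foxd3 of the neural crest also had none, whereas Epcam and Wnt7a of the ectoderm had one in 3, Cdh1 in 2 and Erbb3 of the neural crest in 4. The neuronal genes Isl1 and Pou4f1 had one in all 6, and the muscle progenitor gene Pax3 in 5. Twist1, Msx1, Kdr and Isl1 promoters were also listed in all 8 other libraries of the rule and that of Prrx1 in 7, so these summits did not set the EYFP+ cells apart, and the limb mesenchyme itself expresses Isl1 in the hindlimb field. Tbx5, the forelimb factor, had a promoter summit in 2 EYFP+ lists and in 0 of the 8 others, and Pitx1, the hindlimb factor, in 4 and 7. The 2 lists with Tbx5 were replicate 3 of FL_GFP_pos and replicate 3 of HL_GFP_pos. Each of them held all 7 limb mesenchyme markers, Tbx4 and Pitx1 included, so these summits did not separate forelimb from hindlimb.

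The EYFP-listed regions lay far from promoters. Within 2000 bp of an annotated start lay 64 of them, or 10.9%, against 52.3% of all merged regions. Introns held 40.5% (237), intergenic sequence 46.5% (272) and exons 2.05% (12), and the median distance to a protein-coding start was 67238 bp against 4805 bp. Among regions over 2000 bp from a start, which are called distal, the 521 EYFP-listed ones did not lie much farther out, with a median of 76120 bp against 69727 bp. The base composition followed: the median GC content was 48% against 58%, and the median number of CpG in 200 bp was 2 against 9, whereas among distal regions the GC content was 47.5% against 49%.

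As a mirror set, 213 regions were listed in at least 7 of the 8 other libraries and in at most 1 EYFP+ library. Of these 62.4% were promoters, and of the 2866 regions listed in all 14 libraries 92.5% were. Chromosome X held 1.03% of the EYFP-listed regions against 2.75% of all merged regions. Another EYFP-listed region lay within 100 kb for 9.23% (54), a share given without a background.

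Short sequence words were counted on both strands of the 200 bases around the best-ranked summit. TAATTA was present in 124 EYFP-listed regions, or 21.2% (95% Wilson interval 18.1% to 24.7%), and in 6.48% of all merged regions. Distal regions are the closer comparison, and there the shares were 22.5% (19.1% to 26.2%) and 12%. In the mirror set TAATTA was in 2 of 213 regions, or 0.939%, and in 2 of its 80 distal regions, or 2.5% (0.688% to 8.66%). Words of ISL1 (CTAATGG or CTAATTG, neither of which contains TAATTA) were in 15.4% of distal EYFP-listed regions against 8.60% of all distal regions, and TAATTA or an ISL1 word was in 34.9% against 19.4%. These intervals cover counting error only, and the regions are neither independent samples nor replicates.

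Since TAATTA contains no G or C, its share was also read within bins of GC content. Among distal regions below 40% GC, 18 of 45 EYFP-listed regions held it (40%) against 25.4% of the others. From 40% to 50% GC the shares were 26.1% (74 of 283) and 15.4%, and from 50% to 60% they were 14.7% (25 of 170) and 7.91%. At 60% or more, 0 of 23 EYFP-listed regions held it, against 0.754% of the others. In the 3 lower bins the EYFP-listed regions held TAATTA more often than other distal regions of like composition. TAATTA was in 23.1%, 21% and 19.5% of the best, middle and lowest-ranked 195 regions, so it varied little with rank.

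The ETS words did not set the regions apart. AGGAAGT or AGGAAAT was in 71 EYFP-listed regions, or 12.1% (9.73% to 15%), against 9.99% of all merged regions, and among distal regions in 12.9% against 13.3%. TAATTA and an ETS word stood together in 13 EYFP-listed regions, the Spata9 region among them, or 2.22% against 0.815% of all merged regions (distal 2.30% against 1.49%). Since TAATTA alone was in 21.2% against 6.48%, the joint share does not show that the words pair, which was not tested.

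Other words moved in both directions. Among distal regions CAGATG, an E-box of the type bound by HAND2, the posterior limb factor, was in 27.3% of the EYFP-listed regions against 22.7%, and CAGCTG in 19.2% against 16.9%. Within bins of GC content CAGATG was in 20% against 20.96% below 40% GC and in 27.9% against 27.7% from 40% to 50%, where the shares were close. It was in 29.4% against 23.3% from 50% to 60%, and the shares also differed at 60% or more (4 of 23 regions, 17.4%, against 8.39%). The SOX word ACAAAG (16.1% against 14.7%) and the TEAD word GGAATG (14.4% against 12.8%) differed less. GATA words (AGATAA or TGATAA) were in 8.06% against 13.7%, HOX words (TTTATGG or TTTATTG) in 10.4% against 11.4%, and the MEIS word TGACAG in 13.2% against 17.4%. The motif of CTCF, which anchors chromatin loops, was in 3.07% of distal EYFP-listed regions against 9.10%, and the SP/KLF word GGGCGG in 7.49% against 11.2%. The NRF1 motif of CpG-rich promoters was in 0 of the 585, against 4.12% of all merged regions. AGGAAAT and TAATTA, or GATA and E-box words, can share bases, so the shares are not additive, and a word is not proof of a bound site.

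**Figure D2:**
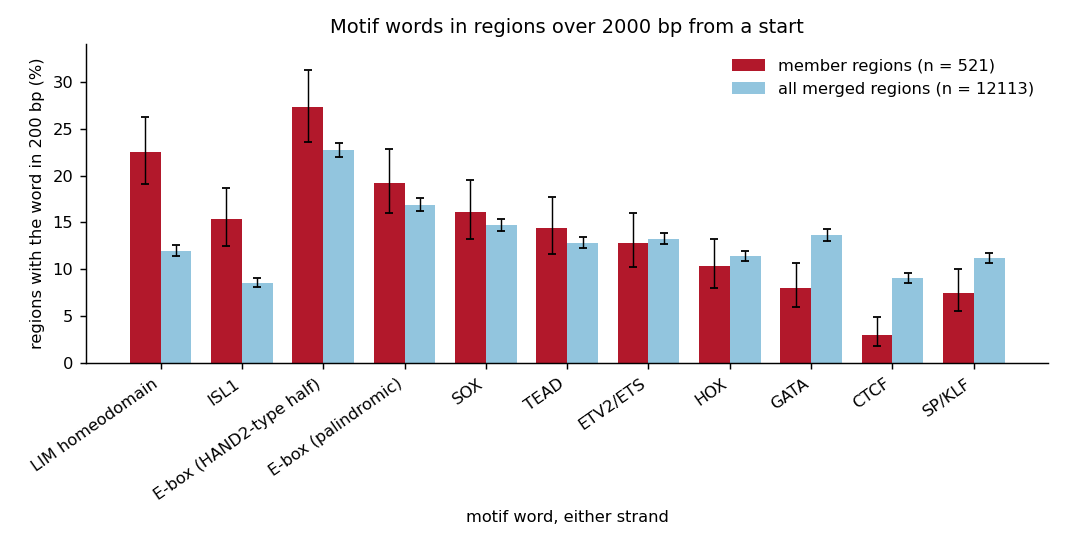
The share of distal regions (y axis, percent) that hold each word on either strand of 200 bp, for 521 EYFP-listed regions (member regions) and all 12113 merged distal regions. Error bars are 95% Wilson intervals; TAATTA (LIM homeodomain, 22.5% against 12%) and the ISL1 words stand above the background, the ETS words (12.9% against 13.3%) do not, and GATA, CTCF and SP/KLF stand under it. The palindromic E-box is CAGCTG and the other E-box CAGATG.

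By nearest protein-coding start, the regions spread over 538 genes, of which 495 were nearest to 1 region, 39 to 2 and 4 to 3. The latter, named after their counts were seen, were Lmo4, which encodes a LIM-only cofactor, Cdh11, a cadherin of mesenchyme, Irx1, an Iroquois homeodomain factor, and Robo1, an axon guidance receptor. All merged regions placed 12, 24, 10 and 21 regions nearest to these genes. A gene of the 13 lists examined, 331 genes in all, was nearest to 58 regions, or 9.91%, against 3.93% of all merged regions and 6.11% of distal ones. A nearest gene is a position and does not show that the site acts on it.

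By number of regions, limb patterning, skeletal and signalling genes came first among the lists, which differ in size. Limb mesenchyme factors were nearest to 10 (1.71% against 0.610% of all merged regions, and 1.73% against 0.966% among distal ones), among them the Fgf10 region and a region near Irx3, an Iroquois homeodomain factor gene. Cartilage and skeletal genes were nearest to 8 (1.37% against 0.260%, distal 1.34% against 0.446%), near Sox9, Sox5, Sox6, Col9a1 and Col1a2. FGF, BMP, WNT and retinoic acid genes were nearest to 10 (1.71% against 0.705%, distal 1.92% against 1.048%), near the R-spondin genes Rspo2 and Rspo3, which enhance WNT signalling, Wnt5a, Dkk2, Tcf7l2, Fgfr1, Spry2, Etv4 and Dhrs3. Hedgehog and posterior limb genes were nearest to 6 (1.03% against 0.457%, distal 0.960% against 0.71%), 1 each near Hand2, Grem1, Bmp2, Gas1, Boc and Hhip, of which Hhip, Gas1 and Boc encode proteins that bind hedgehog ligands. LIM factors and cofactors were nearest to 5 (0.855% against 0.256%, distal 0.960% against 0.429%), near Lhx9, Ldb2 and Lmo4.

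Genes of other cell types had fewer regions by number, although the blood list stood farther above its background, as a ratio of shares, than any other list. Endothelial genes were nearest to 4 (Cdh5, Erg, Ets1 and Lmo2, 0.684% against 0.272%, distal 0.768% against 0.471%) and blood genes to 4 (0.684% against 0.0866%, distal 0.576% against 0.107%), near Ptprc, which encodes CD45, Zfpm1 and Fcer1g. Neither Cdh5 nor Ptprc had a promoter summit in the EYFP+ lists. Muscle progenitor genes (Eya1, Pax3), neuronal genes (Ebf3, Pou4f1) and neural crest genes (Cdh19, Tfap2b) were each nearest to 2, or 0.342%, against 0.157%, 0.394% and 0.256% of all merged regions (distal 0.384% against 0.239%, 0.570% and 0.388%). Lateral plate genes (Nr2f1, Bnc2) were nearest to 3 (0.513% against 0.217%, distal 0.576% against 0.355%), and ectoderm (En1) and nephric genes (Wnt11) to 1 each (0.171% against 0.134% and 0.142%, distal 0.192% against 0.198% and 0.223%). Among distal regions the neuronal share was under its background, and the neural crest, ectoderm and nephric shares, of 1 or 2 regions each, were near theirs. Whether any of these regions came from other cells in the sort was not tested.

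The single regions show how the ranks ran. In FL_GFP_pos replicates 1 to 3 and then HL_GFP_pos replicates 1 to 3, the Fgf10 region ranked 925, 1639, 4807, 1070, 593 and 4358. The Sox9 region ranked 3474, 1730, 759, 1674, 2191 and 2417, and an intron region of Sox6 (chr7:115645732-115645931), whose product acts with SOX9 in cartilage, ranked 4327, 2095, 2425, 1983, 2800 and 2735. All 3 were listed in all 6 libraries. The Sox9 and Sox6 regions were among the 10000 best summits in 14 of 14 WT_Control and Etv2_OE libraries and in neither LimbWT_10_25 library, and the Fgf10 region in those 14 and in both LimbWT_10_25 libraries. A region in an intron of Pax3 (chr1:78129341-78129540), the factor of migrating muscle progenitors, was missing in FL_GFP_pos replicate 1, ranked 9957, 4474, 5153, 7383 and 3665 in the others, and was listed in 0 of the 18 libraries outside the rule.

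The best-ranked regions of all were partly repeats. A region on chromosome 1 (chr1:24613296-24613495) ranked 4, 5, 3, 9, 4 and 4 in the EYFP+ libraries, and 100% of its 24-base words occur in the mitochondrial genome. A pair of regions at the edge of chromosome 9 near Gm10722, with median ranks of 11.5 and 86.5, was masked as repeat. Reads of such sequence can belong to many copies, so these ranks are uncertain. They are exceptions, since 5 EYFP-listed regions (0.855%) were over 50% masked, against 6.72% of all merged regions. After them came the Ccdc34 region (185, 234, 1262, 382, 306 and 1155), the Spata9 region (839, 508, 569, 295, 554 and 2560), a region 15055 bp from Fcgr3, which encodes an Fc receptor of immune cells, the promoter of Olfml1 and an intron of Tenm2, a teneurin of neurons. Ccdc34, Spata9 and Olfml1 regions were listed in all 14 WT_Control and Etv2_OE libraries, and the Fcgr3 region in 0 of them although it was listed in HL_E9_5 and both LimbWT_10_25 libraries.

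The 18 libraries outside the rule give measurements that did not choose the regions. Apart from HL_E9_5, however, the 8 other libraries of the rule were posterior hindlimb. The rule thus left out regions that ranked high there, which can by itself favour anterior over posterior libraries. How much of the anterior excess given below came from this was not tested. The study places the non-endothelial EYFP+ cells of E10.5 limb buds only ventro-posteriorly. Of the EYFP-listed regions, 67.7% ± 4.61 (SD, n = 4; 63.9% to 74.2%) were among the 10000 best summits of WT_Control_A and 50.6% ± 2.27 (n = 4; 47.2% to 52.0%) among those of WT_Control_P, against 37.3% and 36.2% of all merged regions. Etv2_OE_A listed 68.9% ± 3.06 (n = 3) and Etv2_OE_P 50.9% ± 2.78 (n = 3), against 36.9% and 35.7%. The anterior libraries lay above the posterior ones without overlap in both sets of embryos. For distal regions the contrast with the background was wider, at 66.9% against 21.5% in WT_Control_A and 48.6% against 19.8% in WT_Control_P.

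In contrast, LimbWT_10_25, posterior wild-type hindlimb  listed 17.3% and 15.6% of the EYFP-listed regions against a mean of 38.8% of all merged regions, and 59.6% of the mirror set. Among distal regions its share was 13.8% against 12.7%, close to the background. When its 30000 best summits were taken in place of 10000, it listed 86.4% against 72.7%, and the order turned. Posterior_E10_5 listed 29.2% against 37.4%, or 25.7% against 14.1% of distal regions, and Anterior_E10_5, whose list was the shortest with 13766 summits, 30.1% against 34.5%, or 28.0% against 17.4%. These have 1 library each, without replicate check. Of the 585, 109 were listed in Posterior_E10_5 alone, 114 in Anterior_E10_5 alone, 62 in both and 300 in neither. These were 18.6%, 19.5%, 10.6% and 51.3%, against 12.6%, 9.68%, 24.8% and 53.0% of all merged regions.

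Most EYFP-listed regions were found again somewhere, with 23 (3.93%) in none of the 18 libraries, 338 (57.8%) in at least 9 and 14 (2.39%) in all 18. Of all merged regions 30% were in none, 35.8% in at least 9 and 13.9% in all 18. Presence was one-sided along the anterior-posterior axis: 25 regions (4.27%) were listed in 4 of 4 WT_Control_A and 0 of 4 WT_Control_P libraries, against 90 (0.354%) of all merged regions, and 0 the other way, against 51 (0.201%). Regions with TAATTA were listed in 63.3% of cases in WT_Control_A and 44.8% in WT_Control_P, and regions without it in 68.9% and 52.1%. Thus the anterior excess was seen in regions with and without the word.

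The WT_Control and Etv2_OE libraries were tested by limma on a rank score, which is 1 for the best of 30000 summits, falls to near 0 for the last and is 0 for a region not listed, over 47332 regions listed in at least 2 of the 14 libraries. Of the EYFP-listed regions, 578 could be tested. In posterior against anterior control hindlimb, 28 (4.84%) scored lower in the posterior portion at a Benjamini-Hochberg adjusted p of 0.05 and 0 scored higher. Over all regions tested, 0.416% were lower and 0.558% higher. The median difference, posterior minus anterior, was -0.07 for the EYFP-listed regions and 0 over all regions, and 401 of the 578 (69.4%) were below 0 against 48.9% of all. Among the 28, the regions near Tlr4 and Nrip1 were listed in 0 posterior libraries of either set. Those near Flrt2, Hhip, Samd5, Nsun3 and Fam174a were listed in 1. All of these met the filter of 2 libraries through anterior lists alone. Their differences are a description, although they stay in the counts here and in Etv2_OE.

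This count depended on single libraries. Leaving out WT_Control_A replicates 1, 3, 5 or 7 gave 9, 13, 14 and 8 lower regions, and leaving out WT_Control_P replicates 4, 6 or 8 gave 7, 7 and 10, while without WT_Control_P replicate 2 there were 23. Lower calls over all regions, 197 with every library, numbered 126, 168, 139 and 124 without those anterior libraries and 51, 54 and 55 without those posterior ones. The score also mattered, with 4 EYFP-listed regions (0.775%) lower when it was taken over 10000 summits, against 0.058% of all regions. Scored as listed or not, 8 (1.38%) were lower against 0.758% of all, which is much nearer the background, and 5 of these were among the 28. The WT_Control_P lists were also longer, with 51268 to 54679 summits against 40949 to 45765 in WT_Control_A, and the part of list length in the difference was not tested. WT_Control replicates are numbered as in the labels, odd for anterior and even for posterior.

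Overexpressing embryos, which share no library with the controls, gave the same direction. The regions were the same ones, chosen with posterior hindlimb among the libraries that left regions out. Posterior against anterior, 15 of 578 EYFP-listed regions (2.60%) were lower and 0 higher by limma, against 0.203% lower and 0.188% higher of all regions tested, with a median difference of -0.07 against 0 and 69.4% below 0 against 47.7%. With the score over 10000 summits 0 were lower, as were 0 of all 15516 regions tested there. Scored as listed or not, 7 (1.21%) were lower against 0.706% of all, and 2 of these were among the 15. Without Etv2_OE_A replicate 5 there were 8. Lower calls over all regions, 96 with every library, ranged from 45 without WT_Control_P replicate 8 to 286 without Etv2_OE_A replicate 1. Of the 28 regions lower in posterior controls, 27 were below 0 in Etv2_OE and 11 of them passed the threshold there, with median differences of -0.52 in control and -0.51 in Etv2_OE. Of all 197 regions lower in posterior controls, 181 were below 0 in Etv2_OE and 37 passed there, so agreement in direction was common to the regions called. The interaction, which asks whether the posterior minus anterior difference itself differed between Etv2_OE and WT_Control, was past the threshold for 0 of 47332 regions (limma), with 27 EYFP-listed and 2247 of all regions at an unadjusted p under 0.05.

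**Figure D3:**
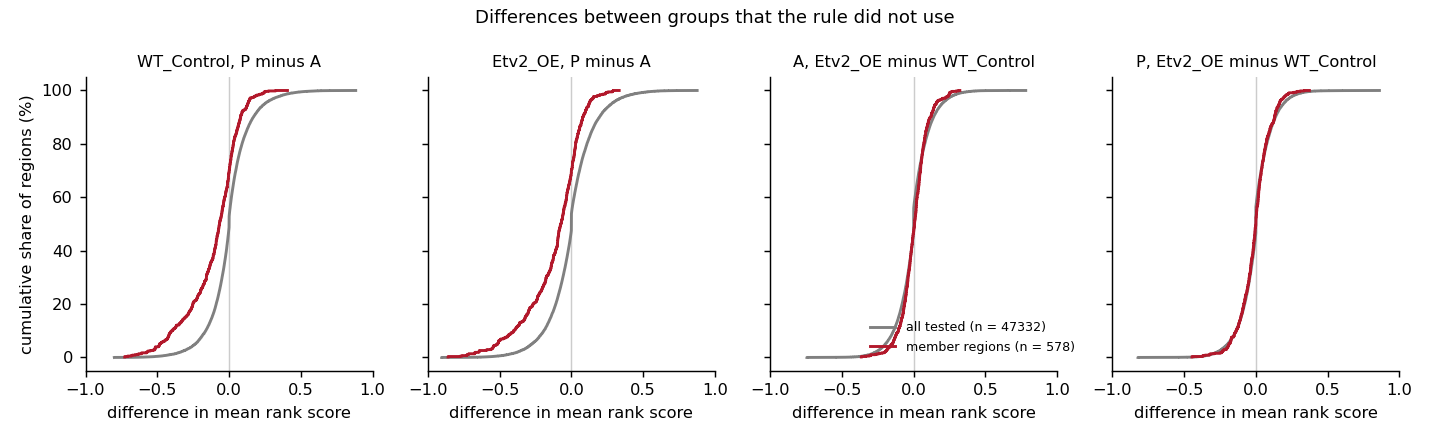
Cumulative share of regions (y axis, percent) by the difference in mean rank score (x axis) for 4 comparisons, with EYFP-listed regions (member regions, n = 578) in red and all tested regions (n = 47332) in grey. The red curves lie left of the grey ones for posterior minus anterior in WT_Control and in Etv2_OE, with 69.4% below 0 in each, and run close to them for Etv2_OE minus WT_Control.

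The 5 regions named here had the smallest p in the control embryos. A region in an intron of Adgrl3 (chr5:81671232-81671431), an adhesion receptor gene, scored 0.818, 0.723, 0.624 and 0.691 in WT_Control_A and 0.136, 0, 0 and 0 in WT_Control_P. It scored 0.719, 0.808 and 0.850 in Etv2_OE_A and 0.237, 0 and 0 in Etv2_OE_P. The anterior and posterior portions did not overlap, and the difference was -0.68 (SE 0.10, limma adjusted p = 0.00916) in control and -0.71 (adjusted p = 0.0204) in Etv2_OE. The region holds TAATTA.

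A region 155638 bp from Tlr4 (chr4:66983151-66983350), which encodes a receptor of innate immunity, scored 0.584, 0.599, 0.599 and 0.726 in WT_Control_A and 0 in all 4 WT_Control_P libraries. The Etv2_OE_A scores were 0.776, 0.728 and 0.684, and the Etv2_OE_P scores were 0. It was thus among the 30000 best summits of every anterior and of no posterior library, with a difference of -0.63 in control and -0.73 in Etv2_OE. The region entered the test through the anterior libraries alone, and 0 is the floor of the score. These differences are therefore given as a description.

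A region 245473 bp from Flrt2 (chr12:95940730-95940929), which encodes a membrane guidance protein, holds an ETS word and scored 0.809, 0.694, 0.682 and 0.824 in WT_Control_A and 0.0995, 0, 0 and 0 in WT_Control_P (difference -0.73, SE 0.11, limma adjusted p = 0.0113). The region in an intron of D5Ertd615e whose nearest protein-coding start is that of Ldb2, 255803 bp away (chr5:45055383-45055582), the gene of the partner protein through which LIM-homeodomain factors form complexes, scored 0.839, 0.769, 0.642 and 0.730 in WT_Control_A and 0, 0, 0 and 0.153 in WT_Control_P (difference -0.71, SE 0.12, adjusted p = 0.0155). In Etv2_OE the Ldb2 difference of -0.64 had an adjusted p of 0.0564 and did not pass. The region near Rbm11 (chr16:75616431-75616630), an RNA-binding protein gene, stayed listed on both sides, at 0.878, 0.769, 0.749 and 0.721 in WT_Control_A against 0.380, 0.301, 0.181 and 0.302 in WT_Control_P (difference -0.49, SE 0.07, adjusted p = 0.0103).

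**Figure D4:**
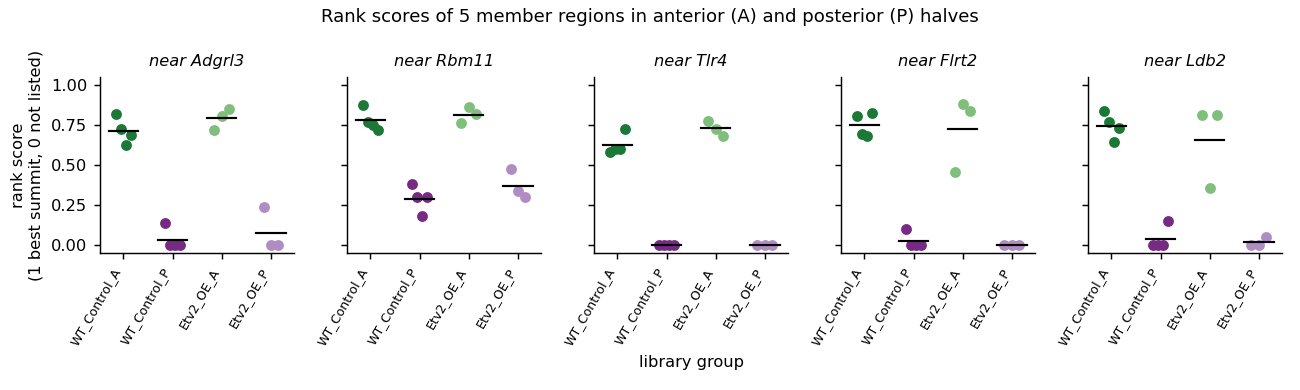
Rank scores (y axis, 1 for the best summit and 0 for a region not listed) of the 5 EYFP-listed regions with the smallest p in control embryos, by library group (x axis). Points are libraries and lines group means; in each panel the anterior points (green) lie above the posterior ones (purple) in WT_Control and in Etv2_OE, and at Tlr4 all 7 posterior points are at 0.

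In Etv2_OE the smallest p belonged to regions near Nr2f1, Nt5e, Gm12728, Ror2 and Kcnh7. The Nr2f1 region (chr13:78629133-78629332), 429476 bp from the gene of an orphan nuclear receptor, scored 0.881, 0.933 and 0.948 in Etv2_OE_A and 0.565, 0.530 and 0.407 in Etv2_OE_P (difference -0.42, SE 0.05, limma adjusted p = 0.00599). In control embryos it scored 0.966, 0.940, 0.939 and 0.930 against 0.790, 0.768, 0.688 and 0.645, a difference of -0.22 (adjusted p = 0.0201), and both comparisons were without overlap. Kcnh7, near a potassium channel gene (chr2:63574084-63574283), had the widest difference of the 5 at -0.86 (SE 0.12, adjusted p = 0.0141), with 0.841, 0.790 and 0.945 in Etv2_OE_A and 0 in all 3 Etv2_OE_P libraries. The Ror2 region (chr13:53201815-53202014) lies in an intron of the gene for a WNT5A receptor and scored 0.843, 0.841 and 0.932 against 0.335, 0.577 and 0.397 (difference -0.44, SE 0.06, adjusted p = 0.012).

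Of the other regions lower in posterior control hindlimb, an intron region of Hhip (chr8:80048328-80048527), a hedgehog target and antagonist, scored 0.709, 0.544, 0.320 and 0.356 in WT_Control_A and 0, 0, 0 and 0.0246 in WT_Control_P (difference -0.48, SE 0.10, limma adjusted p = 0.0377). Its difference of -0.24 in Etv2_OE did not pass (adjusted p = 0.391). The Spata9 region, printed with its overlapping ETS and TAATTA words, passed with a small difference of -0.08 (adjusted p = 0.042), from 0.931 to 0.974 in WT_Control_A against 0.850 to 0.916 in WT_Control_P, and its difference in Etv2_OE was 0.01 (adjusted p = 0.988). The printed Fgf10, Sox9, Ccdc34, Cxxc4 and Tmprss15 regions did not pass in control, with differences from -0.28 to -0.02. The 28 regions had 27 nearest genes. They included 1 promoter, 7 regions with TAATTA and 4 with an ETS word, and 22 were listed in all 6 EYFP+ libraries.

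**Figure D5:**
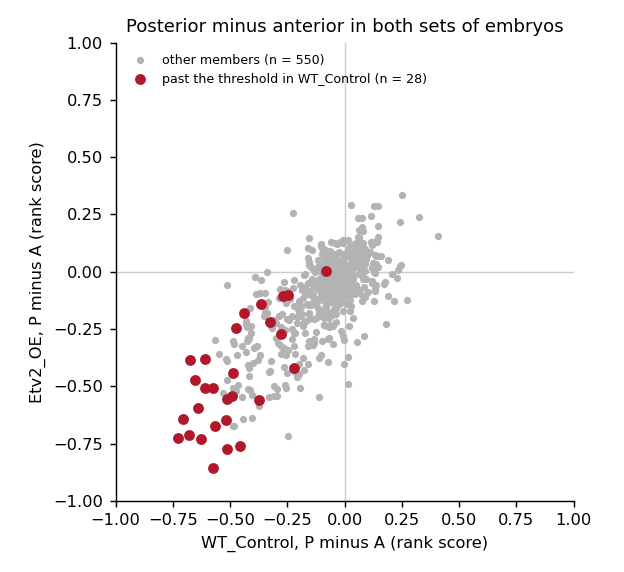
Posterior minus anterior difference in mean rank score in WT_Control (x axis) and Etv2_OE (y axis) for 578 EYFP-listed regions. The 28 regions past the threshold in WT_Control are in red, and 27 of them are below 0 on the y axis as well; the embryos on the axes are different ones.

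By feature, TAATTA regions had 7 of 122 lower in posterior control hindlimb, with a median difference of -0.09, and the regions without it 21 of 456, with -0.05. ETS-word regions had 4 of 70 and the others 24 of 508. Regions listed in all 6 EYFP+ libraries had 22 of 275, and those listed in 5 had 6 of 303. Promoters had 1 of 63 with a median of -0.01, and distal regions 27 of 515 with -0.07. These groups of regions were not tested against each other.

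No EYFP-listed region passed the threshold on overexpression of ETV2. In anterior hindlimb, Etv2_OE against WT_Control, 0 of 578 were higher and 0 lower by limma, against 0.019% higher and 0.00634% lower of all regions tested, and 30 of the 578 and 3039 of all had an unadjusted p under 0.05. The 9 higher calls over all regions became 165, 62 and 97 without Etv2_OE_A replicates 1, 3 and 5, with 0 EYFP-listed regions among the calls each time. In posterior hindlimb 0 were higher and 0 lower, against 0.00211% and 0% of all, with 37 of the 578 and 2852 of all at an unadjusted p under 0.05. There the 1 higher call over all regions became 99, 106 and 81 without Etv2_OE_P replicates 2, 4 and 6, and 1 EYFP-listed region was lower without replicate 2 or replicate 4. The median differences of the EYFP-listed regions were 0.01 and 0. The 70 tested regions with an ETS word had medians of 0.01 and 0.02, and those without it 0.01 and -0.0033. These counts do not show that the ranks were the same. Nothing in the labels says that libraries of other groups came from separate litters, and the p-values measure the spread between these libraries.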

How the data were processed

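ATAC-seq summit lists of 32 libraries were analysed. According to the methods of the study and the submitters' processing notes, the authors aligned reads to mm10 with Bowtie2 (2.2.4), kept uniquely aligned reads without duplicates, shifted them for the Tn5 offset and called summits per library with MACS2 (version not given in the sources used here). Each summit has a deposited value that is the −log10 q-value of MACS2. It grows with sequencing depth, and read counts are unknown, so only ranks within a list were used. The lowest value in each list corresponds to a q of 0.05.

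Members and gene lists were chosen with earlier results of these data known. A library outside the rule listed a region when 1 of its 10000 best summits lay within 200 bp. Nearest genes and classes came from GENCODE M21 on GRCm38.p6, and a region within 2000 bp of a start was a promoter. Sequence words were searched in 200 bp. The rank score over the 30000 best summits was fitted with limma 3.58.1 (lmFit, eBayes with trend, R 4.3.3) for 4 groups of WT_Control and Etv2_OE libraries, over regions listed in at least 2, with Benjamini-Hochberg adjustment at 0.05, and was checked on simulated data. Intervals are 95% Wilson intervals. Anterior and posterior libraries that share a number in the labels were read as portions of 1 embryo and as pairs. Deviations of same-embryo portions correlated at 0.00957 to 0.0697 in control and 0.0331 to 0.0644 in Etv2_OE, against -0.0374 to 0.0272 and -0.0451 to -0.00131 for other pairs.

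Named regions were the 8 with the best median rank, up to 3 per gene list, and up to 5 per direction and comparison with the smallest p. The 4 genes nearest to 3 regions, and the Hhip, Spata9 and other printed regions in the limma results, were named with their values seen. Alternatives were other numbers of summits, merge distances, windows, a stricter rule, leaving out each library and the replicate block. Some genes of the lists are not reported here.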

Additional observations from a re-analysis of the deposited data

Results flagged for a closer look

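Of 26 groups of 4 or more libraries examined, 5 held a library whose gap to the nearest other library was large for the range of its group. Chance flags a share of about 0.05 of groups of untied values, which does not apply to the 3 groups here whose other libraries all scored 0. WT_Control_P replicate 8 listed 47.2% of the EYFP-listed regions, and the nearest of the other 3 libraries listed 51.3%. At the Adgrl3 region WT_Control_P replicate 2 scored 0.136 and the others 0, and at the Flrt2 region the same library scored 0.0995 and the others 0. At the Ldb2 region WT_Control_P replicate 8 scored 0.153 and the others 0. At the Tlr4 region WT_Control_A replicate 7 scored 0.726, and the nearest scored 0.599. At these 4 regions each such library lay on the same side of the other portion as the rest of its group.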

How the results depend on the processing

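Read counts are unknown, so ranks limit every comparison, and the cause of the changes given here was not tested. The number of EYFP-listed regions was 216 with 5000 summits per list, 980 with 15000, 3438 with whole lists and 179 under the strict rule (6 of 6 and 0 of 8), and 589 to 879 when 1 library was left out, the highest without HL_GFP_pos replicate 3. With a library left out, a region could still be missing from 1 EYFP+ library and listed in 1 other. The rule was then looser, since fewer libraries had to meet it. Promoters made up 23.6% with 5000 summits, 8.58% with whole lists, 3.91% under the strict rule, 8.21% within 500 bp of a start and 17.3% within 5000 bp, and 10.496% to 15.9% with a library left out, the highest without HL_E9_5. TAATTA was in 16.7% with 5000 summits, 26.3% under the strict rule, 32% in 500 bp windows and 14.5% in 100 bp windows (all merged regions 12.1% and 3.76%), and 18.9% to 21.9% with a library left out. ETS words were in 9.5% under the strict rule and 26.7% and 6.50% in those windows (all 20.9% and 5.01%), and 11.2% to 12.9% with a library left out.

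LimbWT_10_25 listed 56.5%, 4.85% and 0.233% under the rule with 5000, 15000 and whole lists (all merged regions 62.3%, 25.5% and 9.42%) and 12% under the strict rule. It listed 86.4% at 30000 summits and 89.0% over its whole list, above the 72.7% and 76.6% of all merged regions. WT_Control_A listed 83.7%, 48.3% and 11.2% under those rules, 75.4% under the strict rule, 95.8% at 30000 and 97.4% over whole lists (all 60%, 25%, 9.38%, 37.3%, 70.2% and 75.3%). WT_Control_P listed 71.6%, 34.8% and 8.46%, then 90.0% at 30000 and 94.7% over whole lists (all 58.2%, 24.5%, 9.34%, 68.1% and 76.1%), so under the rule with whole lists WT_Control_P fell below all merged regions. With 1 library of the group itself left out, these means were 15.6% to 17.3% for LimbWT_10_25, 65.5% to 68.9% for WT_Control_A and 50.1% to 51.7% for WT_Control_P.

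Regions lower in posterior control hindlimb numbered 4 with 10000 summits in the score, 13 with 20000 and 8 when scored as listed or not (0.775%, 2.28% and 1.38%, against 0.058%, 0.226% and 0.758% of all regions), and 7 to 31 with a library left out (0 to 1 higher). For Etv2_OE they numbered 0 with 10000 summits and 7 as listed or not (1.21% against 0.706%), and 8 to 21 with a library left out (0 to 2 higher), 8 without Etv2_OE_A replicate 5. Etv2_OE against WT_Control gave 0 to 1 lower in the posterior portion. With the replicate block of the embryo number 31 were lower in control and 16 in Etv2_OE (5.36% and 2.77%, against 0.463% and 0.239% of all regions). In Etv2_OE 1 EYFP-listed region was higher with the block against 0 without it, and 115 of all regions were higher with it. The block moved no other count by over 1.5 times.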
